A study of Danio rerio with 6 samples.

Results

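The genes described here are the 1595 genes, of 37898 in the deposited count table, that start above position 30000000 on chromosome 4 of the zebrafish genome (GRCz11), which is most of the long arm of that chromosome. They were chosen by chromosome and start position, and the region itself was selected with earlier results of these same libraries known, so that counts of differing genes among them are given as a description. Chromosome 4 genes that start at or below that position (847 genes, called short arm genes here) are the comparison. The libraries came from whole *sart3* mutants (*sart3*-/-, 3 libraries) and whole WT siblings (3 libraries) at 4 days post fertilization (dpf), both picked by high-resolution melting genotyping from an intercross of *sart3*+/- fish. The study's methods give the mutant allele as *smu471*, an ENU-induced nonsense mutation that every cell of a mutant larva carries. The Sart3 protein is a factor of spliceosome recycling. How many larvae went into a library is not stated, so the p-values measure the spread between these libraries. A difference in whole larvae can come from fewer cells of a type or from less RNA per cell, and these cannot be told apart.

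The long arm of zebrafish chromosome 4 is known as a large block of heterochromatin. It is rich in repeats, replicates late and holds few of the conserved single-copy genes found on other chromosomes, but large arrays of fish-expanded gene families. Among these are genes for NLR proteins, which carry a NACHT domain and belong to the innate immune sensors, genes for C2H2 zinc finger proteins, many of which bind DNA, and copies of spliceosomal snRNA genes.

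The gene carrying the mutation was checked first. *sart3*, on chromosome 5 from 20453874 to 20481389, had 53.4, 48.1 and 49.3 CPM (counts scaled to a common library size) in the mutants, against 66.1, 68.9 and 70.2 CPM in the WT siblings. All mutant libraries lay below all sibling libraries, with a log2 fold change of -0.44 (SE 0.07, adjusted p = 0.0023). Here and below, the adjusted p comes from the quasi-likelihood test of edgeR, with the Benjamini-Hochberg method applied over all 24809 genes with enough counts, a fold change is mutant over sibling, and a gene was called at an adjusted p under 0.05. The libraries held 16008788 to 17387137 gene counts in mutants and 17586740 to 18310233 in siblings. Of 24 markers of larval tissues, 22 were found and each of these had counts, and 20 were tested. Of those, 2 were called higher and 8 lower in mutants, which is 50.0% called beside 27.9% of all genes tested. The lower ones were *prss1* and *ela2l* of the exocrine pancreas, *fabp10a* of the liver, *cryaa* of the lens, *rho*, *opn1sw2*, *fabp2* and *mbpa*. The higher ones were *actc1b* and *myhz2*, with log2 fold changes of 0.34 and 0.25. The other 10 tested markers were not called. The part of such tissue differences in the values below was not tested.

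A few large gene families made up much of the long arm. Membership came from annotation, and sequences were not compared. The family rules took 404 long arm genes as C2H2 zinc finger genes, 40.4% of the 1001 such genes in the table, and 229 as NLR genes, 62.6% of 366. The long arm held 4.21% of all genes of the table. It also carried 392 of the 541 genes with the snRNA biotype (72.5%), which the gene names split into 244 copies of U6 and 148 copies of U1. A further 47 genes carried a SPRY domain, which many fish NLR proteins have at their end, 167 were long noncoding, 38 had the rRNA biotype and 15 belonged to the MS4A family of membrane-spanning proteins. There were 3 TRIM genes and 2 Pim kinase genes, and no gene was taken as a histone or snoRNA gene. The rule for GIMAP genes matched no gene of the whole table, so it says nothing about the arm.

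Few of these genes were detected well. In all, 554 long arm genes (34.7%) had no count in any library, against 137 short arm genes (16.2%). The counts sufficed for a test in 414 long arm genes (26.0%), against 558 short arm genes (65.9%). The median FPKM, the count divided by gene length and library size and averaged here over libraries, was 0.061 over all 1595 long arm genes and 1.75 over all 847 short arm genes. Among genes tested, the median level was 1.48 CPM on the long arm and 13.7 CPM on the short arm.

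The low share of tested genes was not even along the arm. From 30 to 70 Mb it lay between 11.7% and 26.3% in every 5 Mb interval, and it was 48.6% at 70 to 75 Mb and 66.4% from 75 Mb to the end. In the last interval before the boundary, 25 to 30 Mb, 39.5% of genes were tested and 51.0% had no count, and that interval already held 18 zinc finger and 5 NLR genes. Up to 25 Mb the share lay between 62.9% and 78.9%. The plot of 5 Mb intervals shows this profile. Almost all snRNA copies (390 of 392) lay between 30 and 70 Mb.

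**Figure D1:**
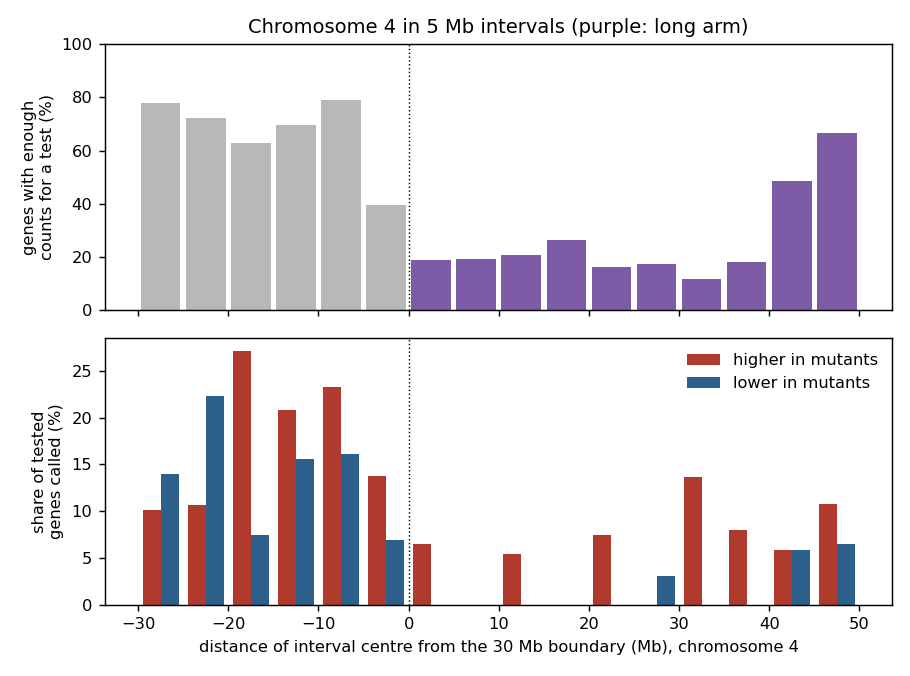
Chromosome 4 in 5 Mb intervals, by distance of the interval's centre from the 30 Mb boundary (dotted line). The upper bars give the share of genes with enough counts for a test (%), purple on the long arm, and the lower bars the share of tested genes called higher (red) or lower (blue) in *sart3* mutants (%). The tested share stays between 11.7% and 26.3% from 30 to 70 Mb and reaches 66.4% in the last interval.

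The tested genes nearest to the boundary show its setting. Just inside lay *si:dkey-265e15.2*, an NLR gene that starts at 30209190, with 4.86, 3.8 and 3.4 CPM in mutants and 1.85, 3.39 and 2.59 CPM in siblings. The next gene inside, the zinc finger gene *si:dkey-233e3.3* at 30262399, had 0.694, 0.935 and 0.299 CPM in mutants and 0.617, 0.678 and 0.676 CPM in siblings. Just outside were also zinc finger genes, *znf1128* at 29967255 and a gene without an Ensembl record at 29959797. *znf1128* averaged 0.604 ± 0.353 FPKM in mutants and 0.34 ± 0.215 FPKM in siblings (SD, n = 3 each), and its neighbour 1.80 ± 0.27 FPKM in mutants and 1.55 ± 0.47 FPKM in siblings. Zinc finger genes thus lie on both sides of the chosen position. None of these boundary genes was called, with adjusted p of 0.13, 0.96, 0.35 and 0.6 in the order named. The symbol *si:dkey-265e15.2* stands for another gene of the table too.

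Together the long arm genes took 0.200%, 0.193% and 0.192% of the gene counts in mutant libraries, against 0.189%, 0.185% and 0.184% in sibling libraries. These are shares of raw counts, without the scaling factor that the CPM include, and in them the mutants were higher without overlap. That factor was 0.9953, 1.004 and 1.015 in mutants and 0.9746, 1.001 and 1.011 in siblings. With it, sibling replicate 1 lies above mutant replicates 2 and 3, so the groups overlap and the separation depends on the scaling. The short arm genes took 1.91%, 1.96% and 1.96% in mutants, against 2.10%, 2.07% and 2.07% in siblings, so that there the mutants were lower. Of the long arm genes, 166, 170 and 169 reached 1 FPKM in the mutants, against 145, 144 and 145 in the siblings. Long arm genes with any count numbered 881, 874 and 892 in mutants and 842, 832 and 855 in siblings, although each mutant library held fewer counts than each sibling library. On the short arm the genes at 1 FPKM numbered 493, 489 and 485 in mutants and 491, 483 and 490 in siblings, and these groups overlapped.

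Of the 414 tested long arm genes, 26 were called higher in *sart3* mutants, 12 were called lower and 376 were not called. This is 9.18% called, beside 27.9% of all genes tested, and by direction 6.28% higher and 2.90% lower, beside 13.6% and 14.3% of all genes. On the short arm 95 genes were called higher and 79 lower (31.2%). The counts moved when single libraries were left out. Without mutant replicate 2 they were 15 higher and 4 lower, without mutant replicate 1 they were 16 and 7, and without sibling replicate 3 they were 16 and 7. Calls over all genes fell too, from 6924 to 4706, 4865 and 5272 in the same order. Each of the 38 called genes had all mutant libraries on one side of all sibling libraries. This separation is not independent of the calls and was not counted over all called genes, so it adds no support to them.

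Long arm genes had lower counts than most genes, so the shares were also set beside genes of like level, with level classes chosen after the values were seen. Under 1 CPM, 8 of 131 long arm genes were called (6.11%), beside 12.7% of all genes in that class. From 1 to 5 CPM, 14 of 211 were called (6.64%), beside 15.6%. From 5 to 20 CPM, 13 of 56 were called (23.2%), beside 25.5%, and from 20 CPM up, 3 of 16 (18.8%), beside 43.4%. In the class from 5 to 20 CPM the shares were close, and in the other classes the long arm share was lower than that of all genes.

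The median log2 fold change over the 414 tested genes was 0.11 (quartiles -0.21 and 0.51), beside 0.02 on the short arm and 0.01 over all genes, and 234 of the 414 values were positive. The median single-gene SE was 0.35 on the long arm and 0.14 on the short arm. By level class, the long arm median was positive only in the classes under 5 CPM. Under 1 CPM it was 0.24, beside 0.40 on the short arm and 0.06 over all genes, and from 1 to 5 CPM it was 0.13, beside 0.01 on the short arm and -0.04 over all genes. It was -0.04 both from 5 to 20 CPM and from 20 CPM up. The called genes also fell unevenly along the arm, as the plot of fold changes by position shows. Of the 38, 26 started beyond 70 Mb, where 178 genes were tested (15 higher, 11 lower), and 12 started between 30 and 70 Mb, where 236 were tested (11 higher, 1 lower). This is 14.6% and 5.1% called, beside 27.9% of all genes tested. The tested genes beyond 70 Mb also had a higher median level, 3.24 CPM against 1.11 CPM. The part of level in this unevenness was not tested. By strand, 15 of 219 tested genes on the plus strand were higher and 7 lower, and 11 of 195 on the minus strand were higher and 5 lower.

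**Figure D2:**
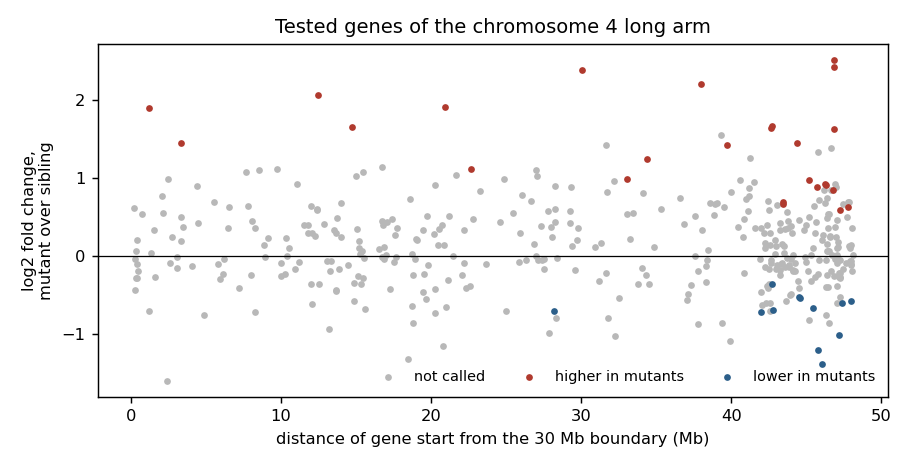
Log2 fold change (mutant over sibling) of each of the 414 tested long arm genes by distance of its start from the 30 Mb boundary (Mb). Grey points were not called, red points (26) were called higher and blue points (12) lower in *sart3* mutants. Of the 12 blue points, 11 lie more than 40 Mb from the boundary.

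The NLR genes together had a higher level in *sart3* mutants. Summed over the 229 long arm NLR genes, tested or not, the level was 268, 247 and 262 CPM in mutants, against 192, 198 and 193 CPM in siblings. This is 259 ± 10.9 CPM in mutants and 194 ± 3.51 CPM in siblings (SD, n = 3), a ratio of 1.33, with no overlap between the groups. The largest single gene gave 7.54% of the sum. The 137 NLR genes elsewhere in the genome summed to 432, 448 and 476 CPM in mutants, against 315, 362 and 343 CPM in siblings, again without overlap and with a ratio of 1.33, and there the largest single gene gave 16.8% of the sum. The family was thus higher in mutants on and off the long arm, and a difference between the ratios was not tested.

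Of the 229 NLR genes, 97 could be tested, 7 were called higher, 1 was called lower and 89 were not called. This is 8.25% called and 7.22% higher, beside 27.9% and 13.6% of all genes tested, and beside 12.7% called of all genes under 1 CPM and 15.6% from 1 to 5 CPM. The median log2 fold change of the 97 was 0.41, and 77 were positive. Over the 220 long arm NLR genes with any count the median was 0.39. Elsewhere, 13 of 70 tested NLR genes were higher and 1 was lower, with a median of 0.45. Under the other scalings, tests and filters, and with each library left out, the long arm median stayed between 0.39 and 0.48.

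**Figure D3:**
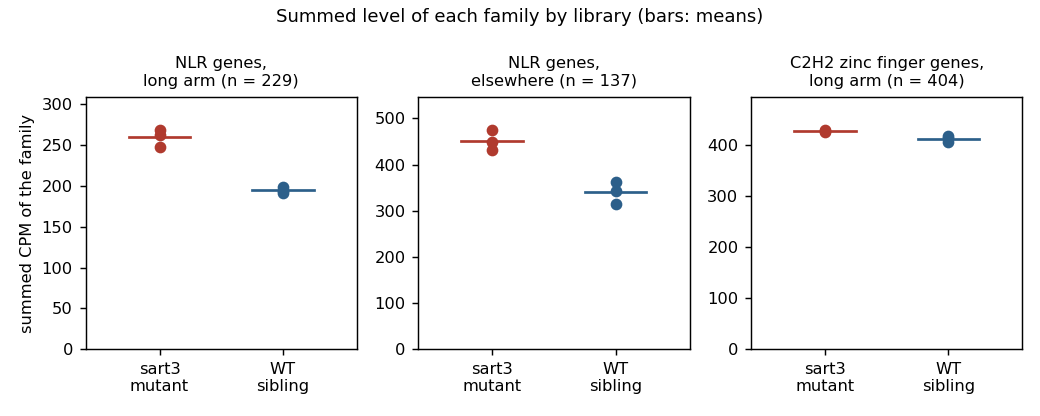
Summed level (CPM) of the NLR genes on the long arm (n = 229) and elsewhere (n = 137) and of the C2H2 zinc finger genes on the long arm (n = 404), by group. Points are the 3 libraries of each group and bars their means. Long arm NLR genes sum to 247 to 268 CPM in *sart3* mutants and 192 to 198 CPM in WT siblings.

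*CABZ01054391.1*, an NLR gene on the plus strand of chromosome 4 from 72668095 to 72685014, had the smallest adjusted p of the family among the rises. Its level was 6.77, 8.35 and 8.90 CPM in mutants, against 1.74, 2.60 and 3.32 CPM in siblings. The mutants were about 3.13-fold higher (log2 fold change 1.65, SE 0.25, adjusted p = 0.0018), and the call held with each library left out. The called NLR genes also included *si:dkey-165o8.2* (75690971 to 75708006) with 12.8, 9.97 and 13.0 CPM in mutants and 7.69, 5.03 and 6.54 CPM in siblings (log2 fold change 0.89, adjusted p = 0.0097). It overlaps *si:ch211-203c5.3* on the same strand. Another, *si:ch211-133h13.1* (67994238 to 68018537), had only 19, 29 and 27 counts in mutants and 5, 6 and 6 counts in siblings (log2 fold change 2.21, SE 0.38, adjusted p = 0.0031). Its symbol stands for another gene of the table too, and the way in which the counter treated reads with several matches is not given in the sources used here, so reads of such copies may be divided between them. These last genes were named after their values were seen.

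Other NLR calls were less secure. The NLR gene ENSDARG00000091499 (74396786 to 74418041) had 1.1, 2.49 and 2.33 CPM in mutants and 0.898, 0.509 and 0.732 CPM in siblings (log2 fold change 1.46, adjusted p = 0.03). Its adjusted p was 0.11 without mutant replicate 2, 0.092 without mutant replicate 3, 0.093 without sibling replicate 2 and 0.083 without sibling replicate 3. *zgc:110171* was the 1 NLR gene called lower, with 0.636, 0.872 and 0.478 CPM in mutants and 1.96, 1.24 and 1.97 CPM in siblings (log2 fold change -1.38, SE 0.37, adjusted p = 0.024). That call was lost without mutant replicate 1 (0.079), mutant replicate 3 (0.08), sibling replicate 1 (0.059) or sibling replicate 3 (0.079). Its record runs from 76060322 to 76183357 across 7 other genes of the same strand. *si:dkey-238k10.2*, an NLR gene called higher (log2 fold change 0.63, adjusted p = 0.0074), has a record from 77761901 to 78048911 that overlaps 13 others, so its reads are uncertain, and it was named after its values were seen.

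The C2H2 zinc finger genes of the long arm differed less. Their summed level was 429, 427 and 425 CPM in mutants, against 405, 413 and 416 CPM in siblings, a ratio of 1.04 without overlap. Elsewhere the 597 genes of the family gave a ratio of 1.05, also without overlap. Of the 404 long arm genes, 173 were tested, 6 were called higher and 1 lower, with a median log2 fold change of -0.03. This is 4.05% called, beside 27.9% of all genes tested, 12.7% of all genes under 1 CPM and 15.6% from 1 to 5 CPM. The sign of this median turned with the setting, between -0.06 and 0.01, so no direction can be given for single genes of the family at large. Of the 504 tested zinc finger genes elsewhere, 58 were higher and 31 lower (17.7% called), with a median of 0.08. The tested genes elsewhere had a higher median level, 4.54 CPM against 1.25 CPM on the long arm. Their median single-gene SE was smaller, 0.22 against 0.35. The part of level in the called shares was not tested. Of 15 tested SPRY genes, 1 was called, a rise (6.67%, beside 27.9% of all genes tested and 20.9% of SPRY genes tested elsewhere).

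**Figure D4:**
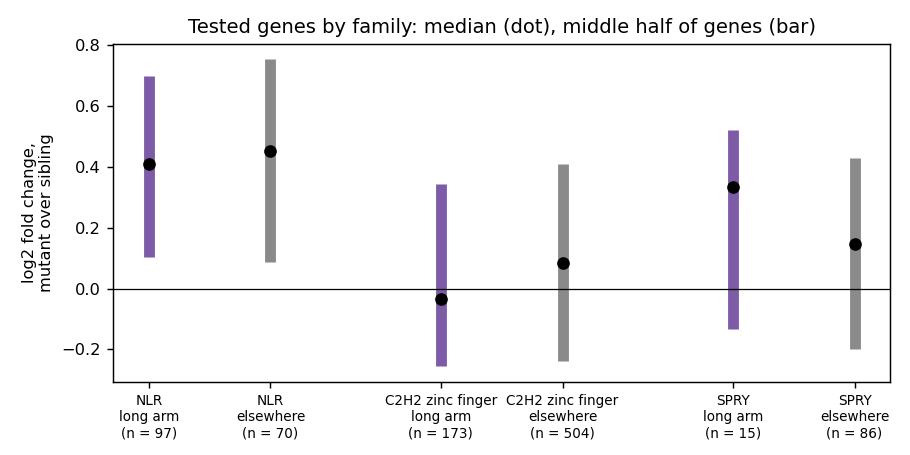
Log2 fold change (mutant over sibling) of tested genes of the NLR, C2H2 zinc finger and SPRY families on the long arm (purple) and elsewhere (grey). Dots are medians over genes and bars run between the quartiles. NLR medians are 0.41 on the long arm and 0.45 elsewhere, and the long arm zinc finger median is -0.03.

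The smallest adjusted p of the whole arm belonged to a zinc finger gene. This gene has no Ensembl record and carries a deposited C2H2 domain annotation. It lies on the minus strand from 72688925 to 72705568 and had 20.4, 23.5 and 22.8 CPM in mutants, against 6.17, 8.37 and 6.37 CPM in siblings. It was 3.19-fold higher (log2 fold change 1.67, SE 0.15, adjusted p = 0.0001), and the adjusted p was at most 0.0011 with any library left out. It starts beyond the end of *CABZ01054391.1*, the NLR gene described above, and both genes had mutant levels above 3 times the sibling levels. The gene before that pair, a zinc finger gene without an Ensembl record at 72653692 to 72657676 (43, 20 and 30 counts in mutants, 37, 29 and 38 in siblings) was not called. On the far side, *rab3ip*, which encodes an interaction partner of the vesicle protein Rab3A, was called lower (log2 fold change -0.36, adjusted p = 0.03), and is named as a neighbour after its values were seen. The *rab3ip* call was lost without mutant replicate 1 (0.064), mutant replicate 2 (0.11), mutant replicate 3 (0.056) or sibling replicate 1 (0.053).

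Among zinc finger genes, *CU467646.4* (77151419 to 77159653) was the 1 called lower. Its level was 1.27, 1.06 and 0.836 CPM in mutants, against 2.24, 2.03 and 2.14 CPM in siblings (log2 fold change -1.01, SE 0.29, adjusted p = 0.03). The groups did not overlap, but the adjusted p was 0.09 without mutant replicate 2, 0.092 without mutant replicate 3, 0.065 without sibling replicate 1, 0.058 without sibling replicate 2 and 0.078 without sibling replicate 3. It also overlaps *si:dkey-172k15.6* on the same strand.

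A cluster of long noncoding RNA genes held the largest called rises of the arm by fold change. *CABZ01015815.4*, *CABZ01015815.5* and *CABZ01015815.3* are lincRNA records on the plus strand between 76847462 and 76863920. *CABZ01015815.4* had 36, 24 and 48 counts in mutants and 5, 11 and 5 in siblings (2.15 ± 0.69 against 0.395 ± 0.197 CPM, log2 fold change 2.43, SE 0.44, adjusted p = 0.0041). *CABZ01015815.5* had 127, 95 and 132 counts in mutants and 39, 38 and 44 in siblings (log2 fold change 1.63, SE 0.20, adjusted p = 0.00055). Both calls held with each library left out. *CABZ01015815.3*, which the naming rule leaves out for its low level and which was named after its values were seen, had 11, 26 and 18 counts in mutants and 6, 2 and 2 in siblings (log2 fold change 2.51, adjusted p = 0.013). Its adjusted p was 0.058 without mutant replicate 2 and 0.054 without sibling replicate 3. All 3 lie within 2 longer records of the same strand, *CABZ01015815.1* and *CABZ01015815.2*, so they are neighbours that may share transcripts and do not count as independent genes. In all, 167 long noncoding genes lay on the arm, 11 were tested, 3 were higher and 1 was lower. This is 36.4% called, beside 27.9% of all genes tested and 26.2% of long noncoding genes tested elsewhere, and the 3 rises are the neighbours above. The lower one, *CABZ01117780.1* (74564192 to 74565834), had 7.35, 6.85 and 7.29 CPM in mutants and 11.4, 9.44 and 10.2 CPM in siblings (log2 fold change -0.53, adjusted p = 0.023). That call was lost without mutant replicate 1 (0.064), mutant replicate 2 (0.084), mutant replicate 3 (0.057) or sibling replicate 3 (0.06).

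Further differing genes had no Ensembl record and only a running number given by the authors, so they are named here by position. Of 55 such long arm genes outside the families above, 35 were tested, 5 were higher and 3 lower. This is 22.9% called, beside 27.9% of all genes tested and 21.4% of such genes tested elsewhere. The one at 60040145 to 60042707 had 4.11, 4.24 and 4.36 CPM in mutants, against 1.23, 0.565 and 0.62 CPM in siblings. Mutant libraries were close to each other and all above the siblings (log2 fold change 2.38, SE 0.33, adjusted p = 0.001), and the call held without each library. The one at 42489073 to 42489975 had 3.30, 3.49 and 1.97 CPM in mutants and 0.505, 0.226 and 1.35 CPM in siblings (log2 fold change 2.06, SE 0.54, adjusted p = 0.023). Its adjusted p was 0.071 without mutant replicate 1, 0.079 without mutant replicate 2 and 0.055 without sibling replicate 1. A weaker rise stood at 64409123 to 64412935, with 1.22, 2.62 and 2.21 CPM in mutants and 0.673, 0.678 and 1.18 CPM in siblings (log2 fold change 1.24, adjusted p = 0.049). It was no longer called by DESeq2 (0.071) or limma-voom (0.066), with upper-quartile factors (0.051) or with every gene that had a count (0.056), nor without mutant replicate 2 (0.17), mutant replicate 3 (0.12), sibling replicate 1 (0.11), sibling replicate 2 (0.13) or sibling replicate 3 (0.05).

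Falls among these genes were smaller. A gene at 58194526 to 58198102, whose deposited annotation is an integrase core domain of the kind found in retroelements, had 8.97, 8.72 and 9.02 CPM in mutants, against 14.4, 17.4 and 11.6 CPM in siblings. It was the only called fall between 30 and 70 Mb (log2 fold change -0.70, SE 0.16, adjusted p = 0.014, and 0.054 without mutant replicate 2). Another at 74489322 to 74496221 had 12.3, 10.9 and 11.4 CPM in mutants and 16.3, 17.0 and 16.1 CPM in siblings (log2 fold change -0.52, adjusted p = 0.0099), a call that held without each library. The last, at 75446655 to 75451455, had 9.49, 9.41 and 10.8 CPM in mutants and 18.3, 16.8 and 11.7 CPM in siblings (log2 fold change -0.66, adjusted p = 0.027). It was no longer called without mutant replicate 1 (0.086), mutant replicate 2 (0.091), sibling replicate 1 (0.061) or sibling replicate 2 (0.07).

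Of the 226 long arm genes outside all these families, 69 were tested, 3 were called higher, 5 lower and 61 not called, beside 13.6% higher and 14.3% lower of all genes. The called falls that the naming rule takes from them all start beyond 70 Mb. *slco1d1*, which encodes an organic anion transporter, lies from 77389668 to 77432218 and had 59.2, 57.6 and 58.5 CPM in mutants, against 95.5, 87.1 and 82.0 CPM in siblings. All mutants lay below all siblings (log2 fold change -0.59, SE 0.07, adjusted p = 0.00061), and the call held without each library. *MYRFL*, a relative of the myelin regulatory factor gene (72797711 to 72850636), had 8.39, 8.53 and 9.91 CPM in mutants and 12.5, 16.3 and 14.6 CPM in siblings (log2 fold change -0.69, SE 0.15, adjusted p = 0.0089), and kept its call too. *pyroxd1*, which encodes an oxidoreductase of the pyridine nucleotide-disulphide type (71987709 to 72036820), had 5.26, 5.73 and 7.11 CPM in mutants and 10.1, 9.27 and 10.4 CPM in siblings (log2 fold change -0.72, adjusted p = 0.012). It overlaps *parp11* on the other strand, and its adjusted p was 0.051 without mutant replicate 1 and 0.052 without mutant replicate 2. *terfa*, which encodes a factor that binds telomeric repeats (77973876 to 77996958), had 15.1, 12.5 and 13.1 CPM in mutants and 22.6, 16.9 and 21.3 CPM in siblings (log2 fold change -0.58, adjusted p = 0.017). Its adjusted p was 0.071 without mutant replicate 2, 0.054 without mutant replicate 3 and 0.06 without sibling replicate 3, and it overlaps 3 other records.

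**Figure D5:**
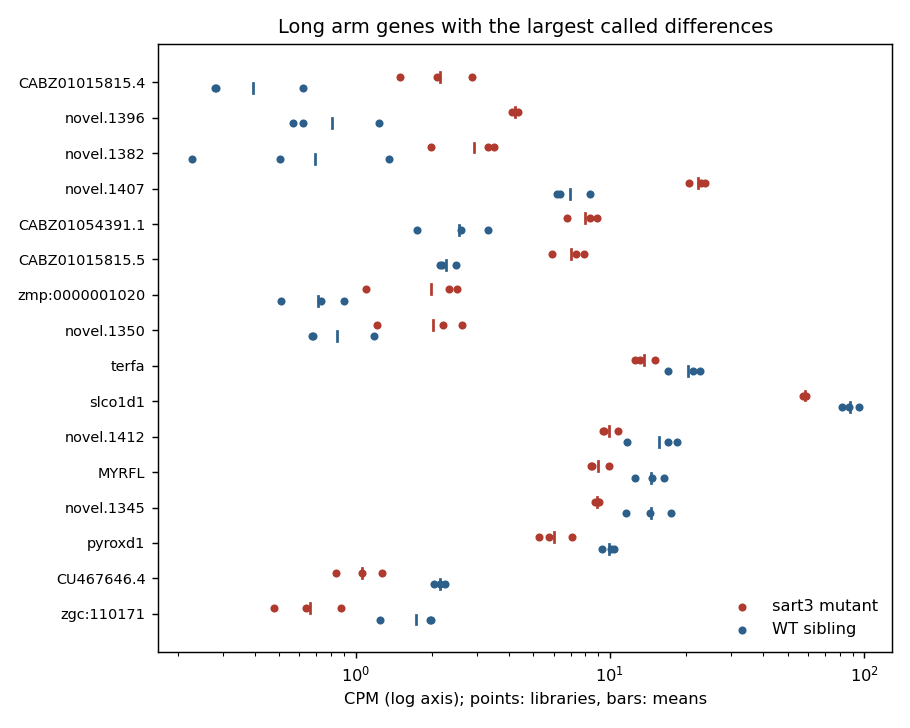
CPM (log axis) in each library of the 8 largest rises and 8 largest falls among called long arm genes with a mean of at least 1 CPM, with *sart3* mutants (red) above WT siblings (blue) in each row. Points are libraries and vertical bars group means. Rows without a symbol carry the running numbers of genes that have no Ensembl record. Only genes whose 3 mutant libraries lie on one side of the 3 sibling libraries were taken, so this separation is part of the choice.

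The genes with the most RNA per length on the arm were not called. They were *CCT2* and *cct2*, 2 records of the chaperonin subunit gene, and *zgc:85975*. *CCT2* averaged 121 ± 4.76 FPKM in mutants and 139 ± 40.6 FPKM in siblings (SD, n = 3 each here and next). *cct2* averaged 49.1 ± 4.93 FPKM in mutants and 52.9 ± 12.2 FPKM in siblings. *zgc:85975*, whose product is not named in the table, averaged 50.2 ± 7.22 FPKM in mutants and 45.6 ± 6.20 FPKM in siblings. The groups overlapped in each of them, and sibling replicate 1 stood above the other 2 siblings in both *CCT2* records.

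The smaller families had single calls. For MS4A this was 11.1% of the tested genes, beside 27.9% of all genes tested. Of the 15 MS4A genes, 9 were tested and 1 was called, *ms4a17a.10* (76775837 to 76785895), with 3.53, 2.99 and 3.34 CPM in mutants and 2.41, 1.41 and 1.63 CPM in siblings (log2 fold change 0.85, SE 0.27, adjusted p = 0.048). Its adjusted p was 0.13 without mutant replicate 1, 0.091 without mutant replicate 2, 0.11 without mutant replicate 3, 0.14 without sibling replicate 2 and 0.13 without sibling replicate 3. The symbol *ms4a17a.10* stands for another gene of the table too, so reads may be divided between these records. The SPRY-domain record *BX957252.3*, annotated as an unprocessed pseudogene (76255295 to 76270790), had 4.80, 5.36 and 4.36 CPM in mutants and 2.24, 2.83 and 2.54 CPM in siblings (log2 fold change 0.93, SE 0.21, adjusted p = 0.011), and kept its call without each library. The pseudogene *CT737182.1* (75816428 to 75825633) had 6, 6 and 9 counts in mutants and 16, 15 and 21 in siblings (log2 fold change -1.20, adjusted p = 0.046). Its call was lost whichever library was left out, with adjusted p between 0.069 and 0.15. Both pseudogene records overlap *si:ch211-106j21.4* on the minus strand.

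Of all 38 calls, 14 held with each library left out in turn, and leaving out 1 library ended between 13 (sibling replicate 1 or 2) and 20 (mutant replicate 2) of them, with no turned direction. Those 14 included *slco1d1*, *MYRFL*, *CABZ01054391.1*, *CABZ01015815.4*, *CABZ01015815.5* and 3 genes without an Ensembl record, those at 60040145, 72688925 and 74489322. DESeq2 called 27 of the 38 and limma-voom 35. Over all genes, the totals called were 6924 in the main fit, 6593 by DESeq2 and 6943 by limma-voom. How many of all called genes kept their call in these settings was not counted. Whether long arm calls were less stable than others is therefore not known. Of the 38, 19 had a log2 fold change of 1 or more in size, and 15 overlap another record.

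The snRNA genes are of interest because the Sart3 protein is known to act on U6 snRNA in spliceosome recycling. Almost no counts were assigned to these genes in these libraries. Of 392 snRNA genes on the long arm, 374 had no count, none was tested, and no gene had more than 5 counts in a library. The 244 U6 copies together had 5, 8 and 12 counts in mutants, against 1, 2 and 3 in siblings, and the 148 U1 copies had 2, 1 and 3 counts in mutants and 2, 0 and 1 in siblings. The U6 copies elsewhere, 59 in number, had 7, 4 and 10 counts in mutants and 3, 1 and 5 in siblings, and the 34 U1 copies elsewhere had 14, 6 and 2 counts in mutants and 0, 0 and 0 in siblings. The U6 total of the long arm was higher in each mutant than in each sibling library, but these are a few reads spread over many copies. No difference in the level of a single snRNA gene was detectable in these libraries. Whether the library preparation retains RNA as short as that of these genes (median 107 bp for U6 and 164 bp for U1) was not tested. How the counter treated reads that match several copies is not given in the sources used here. The low counts therefore do not give the level of the RNA. The 38 rRNA records of the arm had 9, 14 and 12 counts in mutants and 22, 12 and 18 in siblings.

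The authors called few splicing events between the groups on the arm. Their tables listed 14 events in 14 long arm genes, 53 events in 45 short arm genes and 2075 events in 1574 genes in all, counted here by gene identifier. The paper gives the same total of events but a larger number of genes, and this difference was not examined. Of the tested genes, 9 of 414 on the long arm had an event (2.17%), against 45 of 558 on the short arm (8.06%), beside 6.22% of all tested genes. The median level of tested genes was 1.48 CPM on the long arm, 13.7 CPM on the short arm and 10.1 CPM over all genes. The event shares were not set beside genes of like level, and the part of level in them was not tested. The long arm events were 12 skipped exons, 1 pair of mutually exclusive exons in *ptprr*, a gene for a receptor-type tyrosine phosphatase, and 1 retained intron in *ttll1*, a gene for a tubulin-modifying enzyme.

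The skipped exons of the arm were alike in length. Of the 12, 10 were in NLR genes and the other 2 in pseudogene records. By length, 10 were exactly 174 bp long and the other 2 were 114 bp long, which was noticed after the tables were seen and is a description. Of the 1315 skipped exons listed elsewhere, 1 was 174 bp long and 9 were 114 bp long. Only 4 of these 1315 were in NLR genes, so this mostly sets NLR genes beside other genes and does not show a trait of the arm. In all 10 events at least 1 of the neighbouring exons was 174 bp as well, and in 8 both were, so that exons of one length stood side by side in these genes. An exon of 174 bp holds 58 codons, a whole number. An example is *si:dkey-165o8.2*, described above among the rises, with its exon at 75702249 to 75702422. Most of these genes had few reads. Apart from *si:dkey-165o8.2*, with 89 to 221 counts per library, none of the genes with a skipped exon passed 37 counts in any library, and 5 of the 14 genes with an event had too few counts to be tested. The way in which the event reads were assigned among exons of one length and among gene copies is not given in the sources used here.

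Factors of heterochromatin and silencing, encoded elsewhere in the genome, included calls in both directions. Of 42 symbols, 41 were found and 38 were tested, and 4 were called higher and 5 lower (23.7% called, beside 27.9% of all genes tested). The lower ones, by log2 fold change, were *dnmt1* (-0.26) and *uhrf1* (-0.27), which act in DNA methylation, the lamin B receptor gene *lbr* (-0.73), *sirt1* (-0.34) and *sirt6* (-0.62). The higher ones were *morc3a* (0.92), of the MORC family, *suz12a* (0.54), *daxx* (0.45) and *ehmt1b* (0.33). The other 29 tested genes of the list were not called. The summed level of the list was 2030 to 2035 CPM in mutants and 2008 to 2153 CPM in siblings, and the groups overlapped. Of 13 germ cell markers, 12 were found and 8 tested, and 1 was called, the RNA-binding protein gene *dazl*, higher at 1.84. This is 12.5% called, beside 27.9% of all genes tested. The germ cell markers summed to 18.7 to 19.7 CPM in mutants and 13.1 to 17.8 CPM in siblings. None of the genes of these lists lies on the long arm, and their part in the values of the arm was not tested.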

How the data were processed

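The authors deposited gene counts for the 6 libraries, without normalization, and FPKM values that the authors made from each count, gene length and library size. Per the submitters' processing notes, HISAT2 2.0.5, featureCounts 1.5.0-p3 and GRCz11 were used. Strand and multi-mapping settings are not given in the sources used here. The splicing tables held events selected by the authors, and only their gene identifiers and positions were used. Their p-values and inclusion differences are the authors' own comparison and were not used. All per-library columns of the count table matched a sample.

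Counts were analysed with R 4.3.3 and edgeR 4.0.16 (filterByExpr, TMM, quasi-likelihood test, Benjamini-Hochberg adjustment over all genes at 0.05), 3 *sart3* mutants against 3 WT siblings. CPM include the TMM factor. limma 3.58.1 (voom) and DESeq2 1.42.0 were alternatives, as were upper-quartile and RLE factors, other filters, boundaries of 25000000 and 35000000, a replicate block and each library left out. On simulated data with 200 of 24847 genes changed by a log2 value of 1, edgeR recovered 154 and called 9 others. The changed genes were drawn only from genes above a minimum mean count, and 1 common dispersion (0.0274) served for all genes. The recovery therefore does not carry over to the weakly counted genes of the long arm.

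Members, families and lists were chosen with earlier results of these data known. Families came from deposited annotation, symbols and descriptions, with the deposited NACHT domain added to the NLR rule after the files were seen. A total of 1318 members matched a table of gene names, and of 1083 members with a symbol and no small RNA biotype, 179 share it with another gene. Genes named are the 8 largest rises and 8 largest falls among called genes of at least 1 CPM without overlap between groups, the 3 highest in counts per length, the smallest adjusted p per family and direction, the tested genes nearest the boundary, and *sart3*. Others are said to have been named after their values were seen.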

Additional observations from a re-analysis of the deposited data

How the results depend on the processing

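Long arm counts and medians moved with the processing. The number called higher (26) was 17 with a replicate block and 16 at a log2 fold change of 1 or more in size, and 15 to 29 with each library left out. The number called lower (12) was 8 with the replicate block and 3 at that fold change, and 4 to 12 with each library left out. Over all genes, 6924 were called in the main fit, 5941 with the replicate block and 4706 to 7085 with each library left out. The median of 0.11 was 0.23 by DESeq2 and 0.21 with every gene that had a count, which add weakly expressed genes. It was 0.13 by limma-voom, 0.10 with upper-quartile factors, 0.033 with at least 10 counts in every library, 0.12 with the replicate block, 0.07 at a mean CPM of at least 1, 0.12 with the boundary at 25000000 and 0.084 to 0.144 with each library left out. On the short arm, 26 genes were higher and 21 lower at that fold change, 61 to 98 were higher with each library left out, and the median lay between -0.013 and 0.027. Among single genes, *CCT2* (0.052) and *cct2* (0.092) turned direction without sibling replicate 1, the top of their ranges from -0.37 and -0.23 with each library left out, and neither was called. Same-numbered libraries did not deviate together (correlations 0.064, 0.028 and -0.107), so no pairing by number was seen. With 3 libraries per group, whose deviations from the group mean depend on each other, this check cannot exclude a pairing. The replicate block called 25 of the 38 genes. Not every library correlated best with its own number. Beyond left-out libraries and the replicate block, and beside the gene at 64409123 in the report, calls of named genes ended as follows, with the adjusted p in brackets. *CU467646.4* was lost by DESeq2 (0.082) and the NLR gene at 74396786 by limma-voom (0.053). *ms4a17a.10* was lost by DESeq2 (0.087), upper-quartile factors (0.052), RLE factors (0.052) and every gene with a count (0.066), and *CT737182.1* by DESeq2 (0.2), limma-voom (0.058) and every gene with a count (0.083). The cause of these shifts was not tested. Depth limits the arm: 131 of 414 tested members lay under 1 CPM, and their single-gene differences are not detectable unless large.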

Other observations

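The table also holds 100 genes on alternative contigs of chromosome 4, which are not part of the 1595 genes. All of them had counts, 80 were tested, and 6 were called higher and 5 lower in *sart3* mutants (13.8% called, beside 27.9% of all genes tested), with a median log2 fold change of 0.05. Of these genes, 5 were taken as C2H2 zinc finger genes, 2 of them called higher, and the other 95 had no Ensembl record. Whether reads of long arm copies were counted on these contigs was not tested.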
